A study of Mus musculus with 12 samples.

Results

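The A-type potassium current of neuronal cell bodies and dendrites is carried by channels of the Kv4 family, and 9 genes of that channel complex were followed here in mouse cerebellum. They were taken by name from the deposited count table: the pore subunit genes Kcnd1, Kcnd2 and Kcnd3, the KChIP genes Kcnip1, Kcnip2, Kcnip3 and Kcnip4, and the DPP-like partner genes Dpp6 and Dpp10. All 9 were among the 18394 genes of the table, and all 9 passed the filter on low counts with 15467 genes in all. Cerebellum gave 12 mRNA libraries, 6 from mice whose label names a knockout of Crfr1 by deltaalpha6-Cre (cKO) and 6 from mice labelled WT. Crfr1, listed as Crhr1, binds the stress peptide corticotropin-releasing factor, and the Cre line is named for GABA-A receptor α6, whose gene Gabra6 marks cerebellar granule cells. The labels give no age or sex, do not say that each library is a separate animal, so that p-values measure the spread between these libraries, and do not say whether WT mice carried the driver or a modified Crfr1 allele, so effects of receptor loss, driver and linked DNA cannot be told apart. RNA came from whole cerebella, so fewer cells of a type and less RNA per cell cannot be told apart either.

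Kv4 channels open below the firing threshold and inactivate quickly, which delays the first spike and limits how far dendritic potentials spread. Each channel is a tetramer of Kv4 pore subunits, to which cytosolic calcium-binding KChIPs and single-pass DPP-like proteins attach. Both kinds of partner raise surface expression and change the speed of inactivation and recovery. In the cerebellum, Kv4.2 (Kcnd2) and Kv4.3 (Kcnd3) are known from granule cells, and Kv4.3 also from molecular layer interneurons.

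Library totals ran from 32316716 to 58710874 counts in cKO and from 23803779 to 62104185 in WT. Levels below are CPM, counts scaled to library size with TMM factors, and compare one gene between libraries, not different genes. Crhr1 averaged 98.8 ± 6.00 CPM in cKO and 97.6 ± 4.31 CPM in WT (SD, n = 6 each, edgeR adjusted p = 0.889). The labels do not say which exons the knockout removes, and whole tissue includes cells other than granule cells, so these counts do not check the genotype. Gabra6, the gene that names the driver, averaged 623 ± 30.0 CPM in cKO and 813 ± 56.1 CPM in WT (SD, n = 6 each, edgeR adjusted p = 1.45e-05). Granule cell markers were present in every library, with a summed level over all 15 listed genes of 7990 to 8640 CPM in cKO and 8370 to 8690 CPM in WT. Of the 15, 2 were called higher and 5 lower in cKO.

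No gene of the Kv4 complex was called between the genotypes: 0 of 9 had a Benjamini-Hochberg adjusted p under 0.05 in edgeR's quasi-likelihood test, where 409 of all 15467 tested genes, or 2.64%, were called (1.27% higher and 1.38% lower in cKO). DESeq2 also called 0 of the 9. At an unadjusted p under 0.05, edgeR counted 4 of the 9 (Kcnip4, Kcnd3, Kcnip2 and Dpp10), against 14.2% of all tested genes. In 0 of the 9 did the 6 values of cKO lie wholly apart from those of WT, against 2.09% of tested genes. The differences were small and measured tightly for 8 of the 9, with standard errors of 0.02 to 0.06 on the log2 scale, and loosely for Kcnip2, with a standard error of 0.20. The median log2 fold change, cKO over WT, was 0.01 over the 9 genes and −0.00027 over all tested genes.

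**Figure D1:**
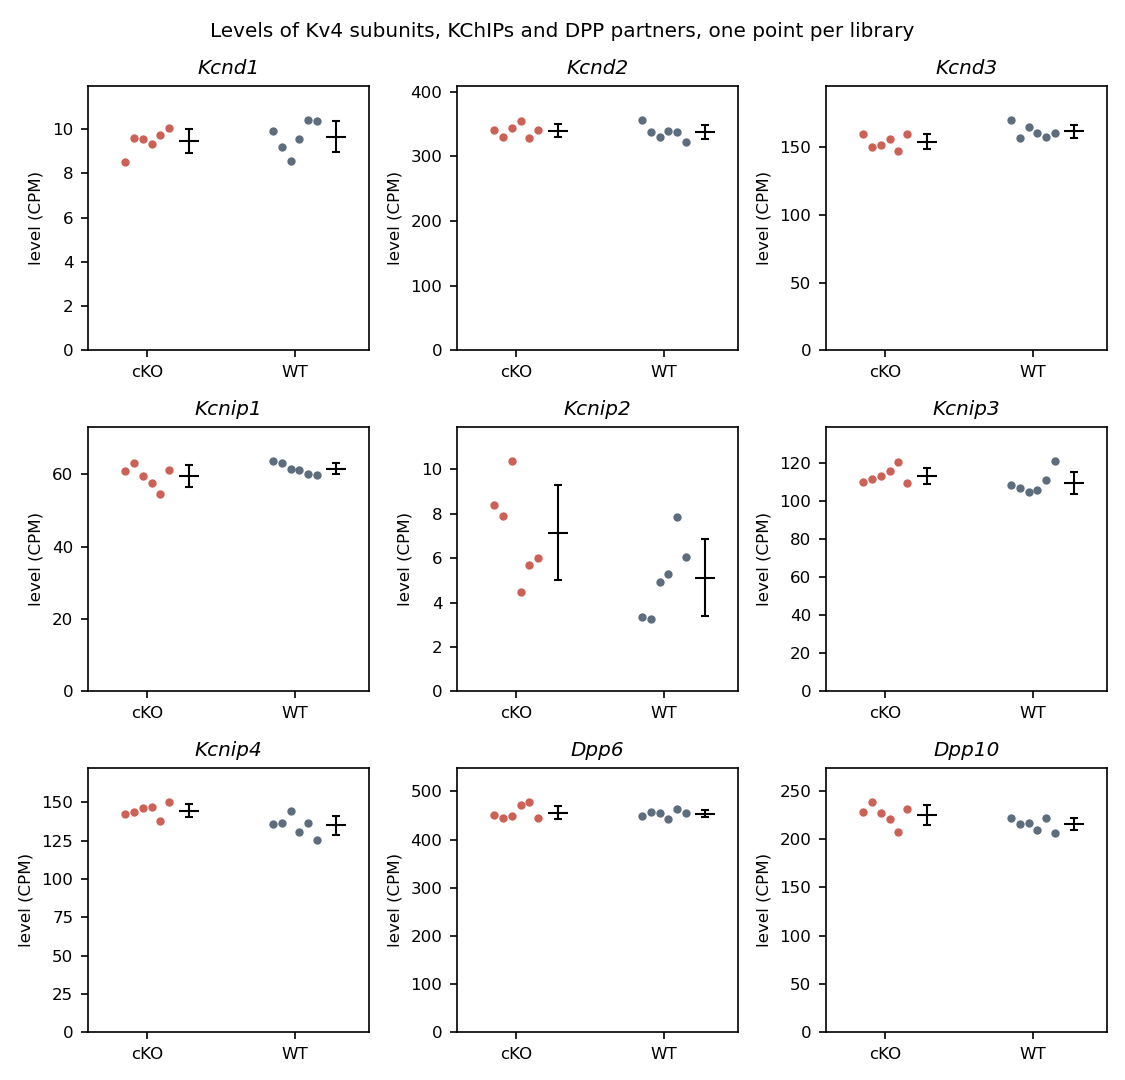
Level (CPM) of each of the 9 genes in 6 cKO and 6 WT libraries, one point per library, with the mean and SD beside the points and axes from 0. The genotypes overlap in every panel, and Kcnip2 is the one gene whose libraries spread widely, from 3.25 to 10.4 CPM.

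The DNA next to the annotated start sites of the genes on which the comparisons below turn is shown first, so that the pore pair Kcnd2 and Kcnd3 can be set beside Kcnip4 and Kcnip2. RefSeq windows on GRCm38.p6, the assembly behind mm10, were available for 8 of the 9 genes (not Kcnd1), with 15 windows in all because several genes have more than 1 start. Each sequence is the 250 bases before the start site, 5′ to 3′ on the gene's strand, with GC boxes (GGGCGG or its reverse complement CCGCCC) in capitals. Kcnd2 lies at chr6:21215096-21215345, plus strand, and Kcnd3 at chr3:105451640-105451889, plus strand. Kcnip2 lies at chr19:45816064-45816313, minus strand. Kcnip4 has windows at chr5:49285660-49285909 and chr5:48599683-48599932, minus strand. Both lie downstream of the first base of the gene in GENCODE M21, 49524907, for which no window was available. For Kcnd2 and Kcnd3, the bases shortly after the RefSeq start site were not found in a GENCODE transcript of the gene.
Kcnd2: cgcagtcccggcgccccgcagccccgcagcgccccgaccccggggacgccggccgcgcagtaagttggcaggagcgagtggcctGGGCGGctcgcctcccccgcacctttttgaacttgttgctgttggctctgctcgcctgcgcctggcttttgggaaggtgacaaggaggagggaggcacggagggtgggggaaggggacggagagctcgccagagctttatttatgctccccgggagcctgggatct
Kcnd3: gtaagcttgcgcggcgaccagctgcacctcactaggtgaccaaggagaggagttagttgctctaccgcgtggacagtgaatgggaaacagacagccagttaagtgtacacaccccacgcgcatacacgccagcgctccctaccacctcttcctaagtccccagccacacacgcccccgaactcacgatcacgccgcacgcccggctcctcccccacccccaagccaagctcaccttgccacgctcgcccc
Kcnip2: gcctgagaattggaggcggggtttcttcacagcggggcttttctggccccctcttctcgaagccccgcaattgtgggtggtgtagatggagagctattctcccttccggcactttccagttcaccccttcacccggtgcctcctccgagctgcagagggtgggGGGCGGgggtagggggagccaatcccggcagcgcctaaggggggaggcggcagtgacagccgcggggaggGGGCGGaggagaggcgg
Kcnip4 upstream start: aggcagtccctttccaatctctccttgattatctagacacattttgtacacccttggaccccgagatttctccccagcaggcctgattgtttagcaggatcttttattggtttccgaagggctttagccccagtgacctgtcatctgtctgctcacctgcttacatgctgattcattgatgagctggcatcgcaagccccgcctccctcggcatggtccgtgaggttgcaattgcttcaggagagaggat
Kcnip4 downstream start: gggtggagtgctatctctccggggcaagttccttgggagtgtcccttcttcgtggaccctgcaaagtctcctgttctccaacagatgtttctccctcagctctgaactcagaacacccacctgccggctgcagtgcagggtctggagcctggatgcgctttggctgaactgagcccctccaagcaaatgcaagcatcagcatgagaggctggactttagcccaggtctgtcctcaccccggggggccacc
The pore genes and Kcnip2 were rich in CpG, with 22 CpG dinucleotides for Kcnd2, 18 for Kcnd3 and 15 for Kcnip2, whereas the Kcnip4 windows held 6 and 5, close to the median of 6 over all 32851 windows. A GC box, counted on both strands, occurred 2 times for Kcnip2, 1 time for Kcnd2 and 0 times for Kcnd3 and Kcnip4, and 32.7% of all windows held at least 1. The core of the cAMP response element (TGACG or its reverse complement CGTCA), relevant to a receptor that raises cAMP, was found in 0 of the 15 windows and in 17.8% of all windows. The full element (TGACGTCA, which contains the core on both strands) was in 1.55% of all windows. A match or its absence describes only these letters in these windows.

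Among the pore subunits, Kcnd2 was nearly identical between genotypes and Kcnd3 was slightly lower in cKO without being called. Kcnd2 (chromosome 6, 21215503 to 21729805, mm10) encodes Kv4.2. Its level ran from 328 through a median of 341 to 355 CPM in cKO, against 323, 338 and 356 CPM in WT. The ranges coincided, with a WT library at either end. In edgeR the genotypes differed by a log2 fold change of 0.01 (SE 0.03, adjusted p = 0.895), and the 95% interval spans −2.91% to 4.71%.

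Kcnd3 (chromosome 3, 105452330 to 105674002), which encodes Kv4.3, ran from 147 through a median of 154 to 160 CPM in cKO, against 157, 161 and 170 CPM in WT. Of the cKO libraries 4 lay below all WT libraries, and 4 WT libraries lay above all cKO libraries, so the groups overlapped in a narrow band. With edgeR, Kcnd3 had a log2 fold change of −0.07 (SE 0.03, adjusted p = 0.231, interval −0.13 to −0.01 at 95%). Of the 13 listed markers of molecular layer interneurons, all not called, 12 had a negative log2 fold change, against 50.2% of all tested genes. Their median was −0.08, and their summed level ran from 1880 to 2070 CPM in cKO and from 2040 to 2130 CPM in WT. These sums overlapped. Negative medians were also found for markers of granule cells (−0.05) and of Golgi and Purkinje layer interneurons (−0.07). The median was −0.03 for unipolar brush cells, −0.01 for Purkinje cells and 0.36 for nuclear neurons. The part of any of these cells in the Kcnd3 difference was not tested. An annotated antisense gene, Kcnd3os, shares 165 exonic bases with Kcnd3 but measured at most 1.99 CPM.

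Kcnd1 (chromosome X, 7822289 to 7838280), the gene for Kv4.1, was the rarest pore subunit, with 236 to 644 counts per library. Its level ran from 8.51 through a median of 9.60 to 10.1 CPM in cKO, against 8.55, 9.76 and 10.4 CPM in WT. The groups overlapped except for 1 cKO library below all WT libraries and 2 WT libraries above all cKO libraries (log2 fold change −0.03, SE 0.06, 95% interval −0.15 to 0.09, edgeR adjusted p = 0.893).

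Of the KChIPs, Kcnip2, Kcnip3 and Kcnip4 were higher on average and Kcnip1 lower in cKO, none past the threshold, and Kcnip4 came closest to a call. Kcnip4 (chromosome 5, 48389502 to 49524907) encodes KChIP4, of which some isoforms slow inactivation of Kv4 channels. The cKO libraries had 142, 144, 146, 147, 138 and 150 CPM, and the WT libraries 136, 137, 144, 131, 137 and 126 CPM. Every cKO library exceeded the WT median, and 5 of 6 WT libraries lay below all cKO libraries. The exception was WT replicate 3, whose 144 CPM fell inside the cKO range. This came to a log2 fold change of 0.10 (SE 0.03, edgeR adjusted p = 0.111), a difference of 7.04% whose 95% interval is 2.40% to 11.9%. Only without WT replicate 3 was Kcnip4 called, with an edgeR adjusted p of 0.0466 at a log2 fold change of 0.12. In the other 11 fits that each left out 1 library the adjusted p was 0.0522 to 0.223. The lowest of these, without cKO replicate 5, lay close to the called value. The gene overlaps 5730480H06Rik on the opposite strand by 168 exonic bases, which measured 2.12 CPM on average. Counts per gene do not separate the KChIP4 isoforms.

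Kcnip3 (chromosome 2, 127456498 to 127522094) encodes KChIP3, also known as calsenilin and as the calcium-dependent transcriptional repressor DREAM. Its level ran from 109 through a median of 112 to 121 CPM in cKO, against 105, 107 and 121 CPM in WT. All 6 cKO libraries exceeded the WT median, and 4 WT libraries lay below all cKO libraries, but WT replicate 6 was the highest of all 12. Its log2 fold change in edgeR was 0.05 (SE 0.03, adjusted p = 0.571, 95% bounds −0.02 and 0.12).

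Kcnip1 (chromosome 11, 33629339 to 33993152), the gene for KChIP1, ran from 54.7 through a median of 60.3 to 63.0 CPM in cKO, against 59.9, 61.3 and 63.5 CPM in WT. Of the cKO libraries 3 lay below all WT libraries, and 2 WT libraries lay above all cKO libraries. edgeR gave a log2 fold change of −0.05 (SE 0.03, adjusted p = 0.545, 95% bounds −0.12 and 0.02). Kcnip1 is 8.31 Mb from Gabra6 on the same chromosome.

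Kcnip2 was the member that varied most between libraries, within both genotypes. Kcnip2 (chromosome 19, 45791839 to 45816061) encodes KChIP2, best known as the KChIP of the heart and also expressed in forebrain. The cKO libraries had 8.41, 7.89, 10.4, 4.49, 5.70 and 6.00 CPM, and the WT libraries 3.37, 3.25, 4.93, 5.30, 7.87 and 6.04 CPM, from 80 to 570 counts. Of the cKO libraries 3 exceeded all WT libraries, and 2 WT libraries lay below all cKO libraries. Its coefficient of variation over the 12 libraries was 34.8%, higher than for 98.8% of the 2487 tested genes within 2-fold of its level. For the other 8 genes it was 2.37% to 6.39%. The genotype difference was a log2 fold change of 0.44 (SE 0.20, edgeR adjusted p = 0.318, 95% bounds 0.02 and 0.86).

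The level of Kcnip2 was compared with markers of forebrain, a list of 22 genes of which 16 were tested, and the correlation did not pass the adjusted threshold. The mean z-score of the list and the log2 level of Kcnip2 had a Pearson r of 0.72 (permutation p = 0.00737, adjusted over the 9 genes 0.0663) and a Spearman rho of 0.748 (permutation p = 0.00716, adjusted 0.0644) over 12 libraries. Without the 2 libraries farthest from the median score r was 0.771, and it was 0.652 within cKO and 0.809 within WT. For the other 8 genes r ran from −0.374 to 0.258, with adjusted p-values of 0.693 or more. The summed level of the list was 499 to 604 CPM in cKO and 506 to 557 CPM in WT. That sum is dominated by genes the cerebellum also expresses: Bhlhe22, Neurod2, Camk2a and Ppp1r1b exceeded 50 CPM in every library. Of these, Bhlhe22, Neurod2 and Ppp1r1b had 74.2, 126 and 135 CPM in cKO replicate 3, the library with the most Kcnip2. They had 84.8, 148 and 147 CPM in WT replicate 2, the library with the least. Camk2a went the other way, with 149.5 CPM in cKO replicate 3 and 111.2 CPM in WT replicate 2. So did Nrgn of the same list, with 43.0 and 9.88 CPM, so Bhlhe22, Neurod2 and Ppp1r1b do not speak for the whole list. With the score as a covariate the log2 fold change of Kcnip2 was 0.25 (SE 0.17, edgeR adjusted p = 0.582).

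Closer matches included genes of thalamus and dorsal midbrain, as seen after the data had been examined. The 5 genes whose levels, centred on genotype means, correlated best with Kcnip2 over the 12 libraries were Shox2, Tcf7l2, Nrgn, Lhx9 and Six3 (Pearson r of 0.978 to 0.959 among 13820 genes). Nrgn is on the forebrain list above. Shox2, Tcf7l2, Lhx9 and Six3 encode transcription factors, several of them known from the developing thalamus or midbrain. A list of 10 such genes, written after these matches were seen and holding 4 of the 5, had 7 tested members, 6 of them with a positive log2 fold change and all 7 not called. The mean z-score of that list had a Pearson r of 0.964 with the log2 level of Kcnip2 over the 12 libraries, 0.967 within cKO and 0.993 within WT, given as a description because the list was drawn from the matches. Their summed level was 69.6 to 96.9 CPM in cKO and 66.7 to 90.5 CPM in WT, and Gbx2, Pou4f1 and Pax7 were too low to test. Not all genes of the list moved with Kcnip2. Tcf7l2 had 22.98 CPM in cKO replicate 3 and 6.142 CPM in WT replicate 2, the libraries with the most and least Kcnip2. Ntng1 differed less, with 28.01 and 25.05 CPM, and Barhl2 went the other way, with 28.41 and 31.65 CPM. The 4 libraries with the highest score were cKO replicates 1, 2 and 3 and WT replicate 5, which were also the 4 with the most Kcnip2. Markers of the cerebellum's own nuclear neurons, a list of 6 genes, were highest in the same 4 libraries. Their summed level was 96.8, 96.1 and 108 CPM in cKO replicates 1, 2 and 3 and 97.4 CPM in WT replicate 5. That list shares Lhx9 with the midbrain list and Tbr1 with the forebrain list. Over the other libraries that sum was 57.4 to 81.0 CPM in cKO and 64.5 to 80.3 CPM in WT. Of those 6 genes 5 had a positive log2 fold change, with a median of 0.36, and all 6 were not called. Because the lists share genes, they cannot tell the cerebellum's own nuclei from other brain regions. The part of either group in the Kcnip2 difference was not tested. The log2 fold change of Kcnip2 was 0.20 both without those 4 libraries (SE 0.16) and with the midbrain score as a covariate (SE 0.07). The score was built from matches of Kcnip2, so a closer fit followed from that choice, and neither value is a test.

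**Figure D2:**
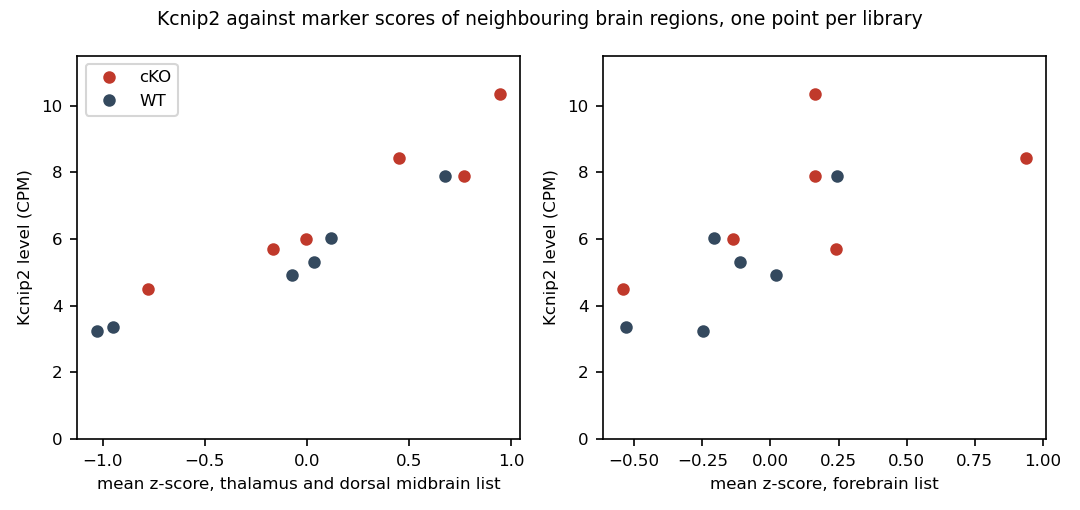
Kcnip2 level (CPM) against the mean z-score of the thalamus and dorsal midbrain list (left) and the forebrain list (right), one point per library, cKO and WT in separate colours. On the left the level climbs with the score in both genotypes, with the 4 libraries of highest score at 7.87 to 10.4 CPM.

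The DPP-like partners were abundant and differed little. Dpp6 (chromosome 5, 26817203 to 27727505), a catalytically inactive relative of dipeptidyl peptidase 4, ran from 444 through a median of 450 to 477 CPM in cKO, against 444, 455 and 464 CPM in WT. The groups overlapped except for 2 cKO libraries above all WT libraries and 1 WT library below all cKO libraries. Its log2 fold change was 0.0068 in edgeR (SE 0.02, adjusted p = 0.937, 95% bounds −0.04 and 0.06). It had the smallest spread of the 9 genes, with a coefficient of variation of 2.37%.

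Dpp10 (chromosome 1, 123321471 to 124045559), the second inactive relative, ran from 208 through a median of 227 to 238 CPM in cKO, against 206, 216 and 222 CPM in WT. Of the cKO libraries 4 exceeded all WT libraries, while cKO replicate 5 was the second lowest of the 12. edgeR put the log2 fold change at 0.07 (SE 0.03, adjusted p = 0.325, 95% bounds 0.0031 and 0.13). Without the 4 libraries highest in the midbrain score it was 0.04 (SE 0.04, edgeR adjusted p = 0.799).

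**Figure D3:**
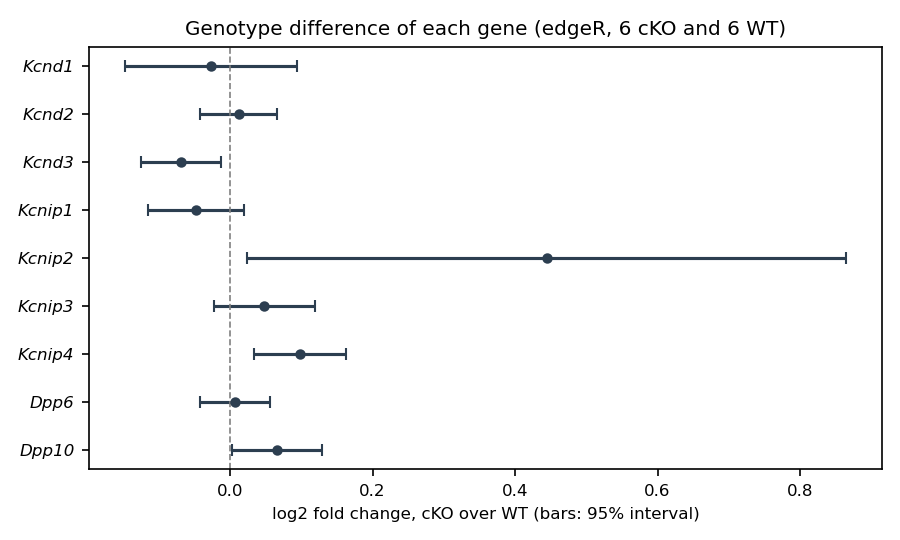
Log2 fold change of each gene, cKO over WT, with its 95% interval from edgeR (6 libraries each). All intervals but those of Kcnd3, Kcnip2, Kcnip4 and Dpp10 include 0, and none of the 9 passes the adjusted threshold.

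Within a library, the ratio between paired members is free of library scaling. All 3 ratios examined were slightly higher on average in cKO, and 2 of the 3 passed the adjusted threshold. The ratio of Kcnd2 to Kcnd3 counts was 2.12, 2.19, 2.27, 2.27, 2.23 and 2.13 in cKO, against 2.09, 2.15, 2.00, 2.11, 2.14 and 2.01 in WT. Of the cKO libraries 4 exceeded all WT libraries, and 4 WT libraries lay below all cKO libraries. The mean log2 ratio was higher in cKO by 0.08, or 1.06-fold (two-sided exact permutation test, p = 0.0152, adjusted over 3 ratios 0.0228). Without the 4 libraries highest in the midbrain score, 3 cKO and 5 WT remained, and the difference was 0.09 with an adjusted exact permutation p of 0.107. The smallest exact permutation p that 3 against 5 libraries allow is 0.0179 before adjustment, so this setting has little power.

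The ratio of Kcnip4 to Kcnip1 was 2.33, 2.28, 2.46, 2.56, 2.52 and 2.45 in cKO, against 2.14, 2.17, 2.35, 2.13, 2.27 and 2.10 in WT. All WT libraries except WT replicate 3 lay below all cKO libraries. The mean log2 ratio was higher in cKO by 0.15, or 1.11-fold (two-sided exact permutation test, p = 0.00866, adjusted over 3 ratios 0.0228). Without the 4 libraries the difference was 0.20 and its exact permutation p was 0.0179, the smallest that 3 against 5 libraries allow, or 0.0536 adjusted. Neither Kcnip4 nor Kcnip1 was called by itself, so the ratio does not say which of them differed. Kcnip1 was the only KChIP lower on average in cKO, and no ratio of Kcnip4 to Kcnip2 or Kcnip3 was examined.

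The ratio of Dpp10 to Dpp6 ran from 0.435 through a median of 0.505 to 0.534 in cKO, against 0.452, 0.475 and 0.493 in WT. The difference of the mean log2 ratio was 0.06 (two-sided exact permutation test, p = 0.242, adjusted 0.242). Single choices of libraries moved it both ways. Without cKO replicate 5, the lowest of all, the difference was 0.09 and the adjusted exact permutation p was 0.0303, and without the 4 libraries highest in the midbrain score it was 9.36e-05 with an adjusted exact permutation p of 1.0.

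**Figure D4:**
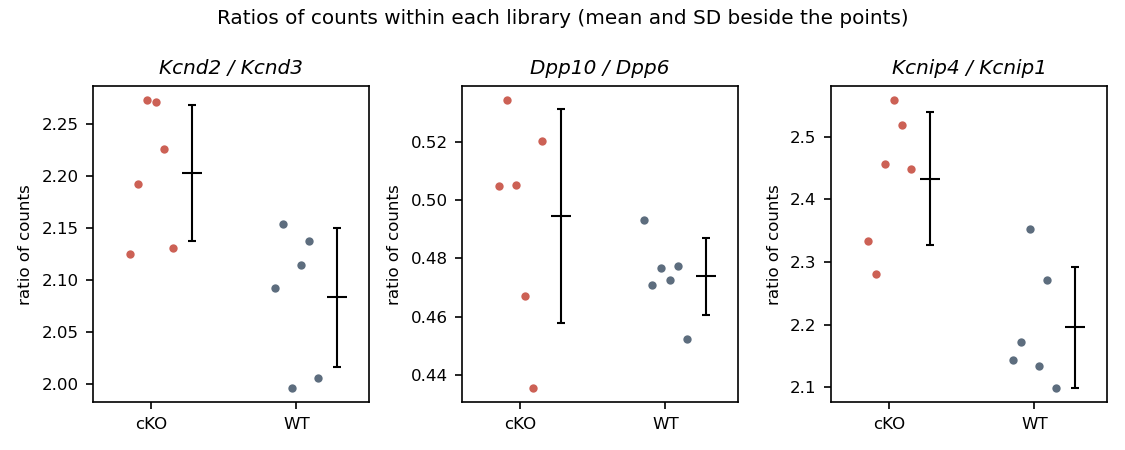
Ratios of counts within each library for Kcnd2 to Kcnd3, Dpp10 to Dpp6 and Kcnip4 to Kcnip1, one point per library, mean and SD beside the points. The axes do not start at 0. In the left and right panels 4 cKO libraries lie above every WT library, as do 4 in the middle panel, where 2 cKO libraries lie low.

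Between genes, levels can be compared only per length, and here they are CPM per kb of exon, using the union of a gene's annotated exons in GENCODE M21. Kcnd2 was the highest of the 9 on this scale, at 66.0 ± 1.92 CPM per kb in cKO and 65.4 ± 2.12 in WT (SD, n = 6 each). Kcnip4 followed at 39.8 ± 1.17 in cKO and 37.2 ± 1.76 in WT, and Dpp6 at 37.0 ± 1.16 in cKO and 36.8 ± 0.57 in WT (SD, n = 6 each). The ranges of these 2 over the 12 libraries overlapped, and whether they differ within libraries was not tested. Kcnip3 came next, between 29.6 and 34.0 over the 12 libraries, then Kcnd3 between 15.4 and 17.7, Dpp10 between 13.1 and 15.1 and Kcnip1 between 8.82 and 10.2, with no overlap between neighbours. Kcnd1, between 1.61 and 1.97, and Kcnip2, between 0.934 and 2.98, were lowest and overlapped.

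Of the pore subunit level per kb, Kcnd2 made up 78.7% ± 0.461 in cKO and 77.8% ± 0.532 in WT, Kcnd3 19.2% ± 0.466 and 20.1% ± 0.523, and Kcnd1 2.14% ± 0.144 and 2.17% ± 0.17 (SD, n = 6 each). Among the KChIPs, Kcnip4 averaged 47.7% in cKO (46.1% to 49.4%) and 46.8% in WT (43.3% to 49.3%), and Kcnip3 38.3% ± 1.60 in cKO and 38.8% ± 1.95 in WT (SD, n = 6 each). Dpp6 gave 72.1% ± 1.51 of the DPP-like level in cKO and 73.0% ± 0.553 in WT (SD, n = 6 each). The length chosen matters for genes with several transcripts: per kb of the longest coding transcript, Dpp6 ranked first at 96.7 in cKO and 96.2 in WT, above Kcnd2, and Kcnip1 moved above Kcnd3. The shares of Kcnd2 then were 73.9% in cKO and 72.8% in WT.

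**Figure D5:**
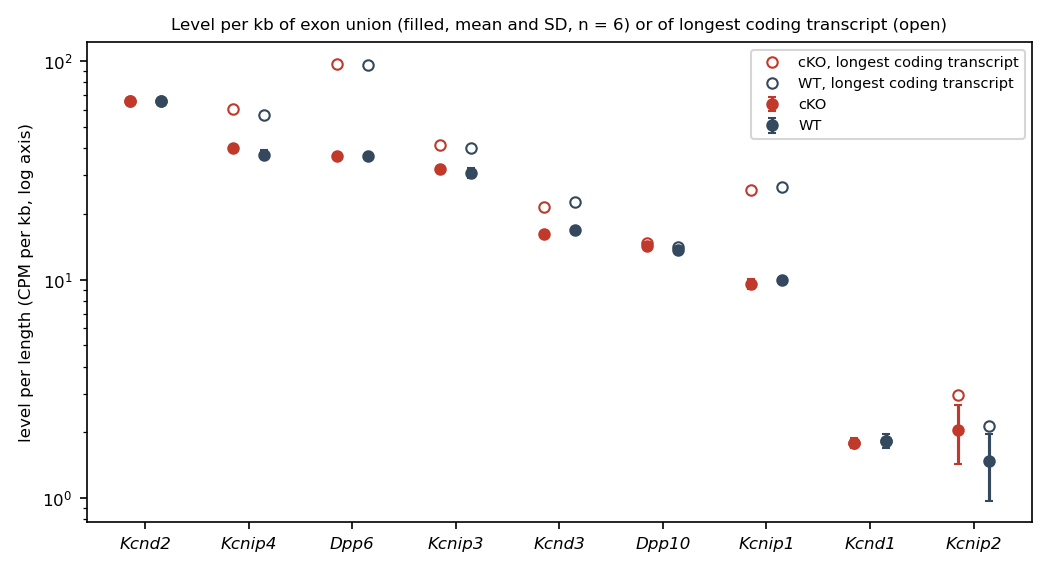
Level per kb (log axis) of the 9 genes in cKO and WT, filled points for the union of annotated exons with SD bars (n = 6 each) and open points for the longest coding transcript. Kcnd2 leads on the first scale, Dpp6 on the second, and Kcnd1 and Kcnip2 are lowest on both.

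Pairs of members were compared after centring on genotype means, and the smallest adjusted p over the 36 pairs was 0.0641 (permutation within genotype). The closest was Kcnip1 with Dpp10, with a Pearson r of 0.858 (permutation p = 0.00196, adjusted 0.0641) and a Spearman rho of 0.80 (permutation p = 0.00615, adjusted 0.221) over 12 libraries. That r was 0.985 within cKO, 0.462 within WT and 0.608 without the 2 libraries farthest from the median of Kcnip1. The genes most like Kcnd2 by the same centred correlation were Fam69a, Tmem181c-ps, Tmtc2, Malsu1 and Mllt11 (r of 0.889 to 0.862), and those most like Kcnd3 were Tcf4, Sp4, 6030458C11Rik, Zfp955b and Pcsk5 (r of 0.922 to 0.889). None of these 10 is a member, and each r is a description over 12 libraries that share depth and dissection.

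Genes that work with or beside Kv4 channels were taken from 7 lists, and 7 of their 71 different tested genes were called, or 9.86%, against 2.64% of all tested genes. The lists were chosen with earlier results of these data known, so that share is a description. Of 6 other genes able to give or modify A-type current, Kcnc4, which encodes the fast-inactivating Kv3.4, fell, and 5 were not called, among them the β subunit gene Kcnab1 (log2 fold change 0.14, SE 0.04, edgeR adjusted p = 0.0794). Kcnc4 averaged 50.5 ± 2.75 CPM in cKO and 64.0 ± 2.69 CPM in WT (SD, n = 6 each, log2 fold change −0.35, edgeR adjusted p = 1.25e-05). Of 3 genes for T-type calcium channels, which form a complex with Kv4 and KChIP3 in rat cerebellar stellate cells, Cacna1i rose, with 127 ± 5.64 CPM in cKO and 96.5 ± 3.46 CPM in WT (SD, n = 6 each, edgeR adjusted p = 3.90e-07). Cacna1g had a log2 fold change of 0.08 (SE 0.03, edgeR adjusted p = 0.152).

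Among 17 tested regulators and scaffolds of Kv4 channels, Camk2b, a subunit of calcium/calmodulin kinase II, rose and 16 were not called. It averaged 995 ± 41.1 CPM in cKO and 920 ± 27.9 CPM in WT (SD, n = 6 each, edgeR adjusted p = 0.0355), and lost its call without cKO replicate 3, 4 or 5 or WT replicate 1, 2, 4 or 6 (edgeR adjusted p = 0.057 to 0.0864), with either marker score or the surrogate variables as covariates, and without the 4 libraries highest in the midbrain score (edgeR adjusted p = 0.0692). In that last setting 3 cKO and 5 WT libraries remained, and the log2 fold change of Camk2b was 0.14 (SE 0.035). Over all 12 libraries it was 0.11 (SE 0.028). Camk2a, also a forebrain list gene, had a log2 fold change of 0.25 (SE 0.07, edgeR adjusted p = 0.0725). Of 7 tested relatives of the KChIPs in the neuronal calcium sensor family, Ncald, which encodes neurocalcin δ, rose, with 228 ± 16.0 CPM in cKO and 198 ± 9.13 CPM in WT (SD, n = 6 each, log2 fold change 0.21, edgeR adjusted p = 0.00773). It lost its call without the 4 libraries highest in the midbrain score (log2 fold change 0.18, SE 0.047, edgeR adjusted p = 0.105). Vsnl1, the visinin-like gene, had a log2 fold change of 0.11 (SE 0.03, edgeR adjusted p = 0.0674).

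Of 7 genes linked to KChIP3 as presenilin partner or transcriptional repressor, Npas4 rose, with 6.96 ± 1.14 CPM in cKO and 3.96 ± 0.86 CPM in WT (SD, n = 6 each, edgeR adjusted p = 0.00137), and 6 were not called. Pdyn, the prodynorphin gene that DREAM was first described to repress, was low, at 0.69 ± 0.29 CPM in cKO and 0.40 ± 0.24 CPM in WT (SD, n = 6 each, edgeR adjusted p = 0.378). Of the 6 other listed peptidase genes, all not called, Dpp4 had the smallest edgeR adjusted p, 0.150, and Dpp9 the next, 0.244. Of 26 other tested voltage-gated potassium pore genes, Kcnc1 rose and Kcna2 fell. Kcnc1, the gene for Kv3.1, averaged 1144 ± 28.02 CPM in cKO and 1035 ± 29.1 CPM in WT (SD, n = 6 each, edgeR adjusted p = 0.00124). Kcna2, the gene for Kv1.2, averaged 547 ± 31.5 CPM in cKO and 664 ± 20.7 CPM in WT (SD, n = 6 each, edgeR adjusted p = 5.10e-05). Median log2 fold changes were 0.02 for the other A-type list, 0.0068 for the regulators, 0.27 for the T-type channels, 0.03 for the KChIP3-linked genes, 0.11 for the calcium sensors, 0.03 for the other peptidases and 0.02 for the other pore genes.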

How the data were processed

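The main deposited table holds raw counts of reads for each gene. Per the submitters' processing notes, STAR, DESeq2 and mm10 were used, with no versions. How reads were counted, and with which strand setting and annotation, is not given in the sources used here. A second deposited table holds the authors' DESeq2 comparison, with a mean signal of normalised counts, log2 fold changes, a test score (Wald statistic), p-values and adjusted p-values. The header does not state its direction. It was used to compare signs and adjusted p-values: 400 genes were called there and here, and 400 had the same sign if positive means higher in cKO. Fresh tissue gave the RNA, libraries were stranded, and all samples shared the same lanes, per the labels' protocols.

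The count test used edgeR 4.0.16 under R 4.3.3: filterByExpr, TMM, glmQLFit and glmQLFTest with Benjamini-Hochberg adjustment at 0.05 over all tested genes and no covariate. Standard errors and 95% intervals came from the test statistic. Ratios were tested by exact permutation over the 924 assignments of libraries, with a smallest p of 0.00216. DESeq2 1.42.0 and sva 3.50.0 (3 surrogate variables) were alternatives. Gene positions and exon lengths came from GENCODE M21 (mm10), promoter windows from RefSeq. The gene test was tested on simulated counts. Named genes were the 9 members, the called members of each list or else the 2 with the smallest p, the closest matches of Kcnd2 and Kcnd3, and Crhr1 and Gabra6. Kcnab1, Camk2a, Cacna1g, Vsnl1 and Pdyn, named beside a called gene of their list, were chosen after their values were seen. Matches of Kcnip2 and the midbrain list were added after the data were seen. Members and lists were chosen with earlier results of these data known. No pair of same-group libraries was a duplicate deposit (lowest chi-square 2.68 times its degrees of freedom), and replicate numbers only name libraries. Sample columns without a match numbered 0. Some results on single forebrain markers are not reported here.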

Additional observations from a re-analysis of the deposited data

Results flagged for a closer look

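Among the 24 sets of 6 values examined, each of the 9 genes and 3 ratios in each genotype, 1 library stood apart. WT replicate 6 had 120.7 CPM of Kcnip3, and its gap to the next WT library was 0.626 of the range of the 6, just over Dixon's limit. Chance gives about 1 such flag in 20 sets.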

How the results depend on the processing

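The 9 genes of the Kv4 complex were refitted under 24 alternatives each, and 0 of 9 were called in all of them except without WT replicate 3, where 1 (Kcnip4) was. Counts over all genes moved beyond 1.5-fold from 409 to 27 with a fold minimum of 1.2, to 157 without the 4 libraries highest in the midbrain score, a setting chosen after seeing the data and with fewer samples, and to 272 without WT replicate 3. With single libraries left out they ranged from 272 to 459. DESeq2 called 561. Kcnd3, Kcnip1, Kcnip2, Kcnip3, Kcnip4 and Dpp10 kept their direction in all 24. Among these, sizes moved over 1.5-fold for Kcnip1 (−0.025 without cKO replicate 5, −0.094 without the 4 libraries) and Kcnip3 (0.029 without cKO replicate 5, 0.08 without WT replicate 6, 0.073 without the 4 libraries, 0.015 with surrogate variables). They also did for Kcnip2 (0.253 with the forebrain score, 0.200 with the midbrain score, 0.196 without the 4 libraries) and Dpp10 (0.040 without the 4 libraries). The near-0 fold changes reversed in single cases: Kcnd1 to 0.027 without the 4 libraries, Kcnd2 to −0.00021 without cKO replicate 4 and −0.00028 without WT replicate 6 (single libraries left out: −0.00028 to 0.0275), and Dpp6 to −0.00013 with surrogate variables, −0.0022 without cKO replicate 4 and −0.0064 without cKO replicate 5 (−0.0064 to 0.0144). The cause was not tested. The log2 ratio differences ranged, with single libraries left out, from 0.07 to 0.09 for Kcnd2 to Kcnd3, 0.13 to 0.17 for Kcnip4 to Kcnip1 and 0.036 to 0.095 for Dpp10 to Dpp6. The first 2 passed the adjusted threshold in all of these fits. Without the 4 libraries their differences were 0.093 and 0.203, and neither passed. With 3 cKO and 5 WT libraries the smallest exact permutation p is 0.0179, or 0.0536 adjusted where 1 ratio alone reaches it. Missing the threshold in that setting therefore decides nothing. No paired analysis was possible because the labels give no replicate numbers shared between genotypes. Counting error was smallest for Dpp6, with at least 10672 counts per library, and largest for Kcnip2, with at least 80.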

Other observations

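In the authors' deposited table, as in the fit above, none of the 9 genes had an adjusted p under 0.05. The smallest there was 0.0638 for Kcnip4 and the next 0.201 for Kcnd3, and 3 of the 9 had a p under 0.05 before adjustment: Kcnip4, Kcnd3 and Dpp10. These values come from the same 12 libraries and are not independent of the fit above.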
